A study of Homo sapiens with 36 samples.

Results

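A549 is a cell line derived from a human lung adenocarcinoma. The data described here are the response of A549 cells to 16 h without glucose after siRNA against ATF6 (siATF6): 3 libraries labelled siATF6 at 0 mM glucose were compared with 3 labelled siATF6 at 25 mM glucose, all at 16 h. These 6 samples of the 36 in the series were chosen by their sample labels alone. In all 6, siRNA at a final 100 nM was delivered with DharmaFECT to freshly plated cells, and each transfected culture was later divided between 2 wells, which received medium with or without glucose. Both media held 10% dialysed serum and 2 mM glutamine, and the growth medium contained no pyruvate. The same comparison after a non-targeting siRNA (siControl) or siRNA against ATF4 (siATF4), with 6 libraries each, served as reference. The labels number the cultures as biological replicates 1 to 3 and say no more of their independence. The p-values therefore rest on the spread between cultures of 1 line, pooled over all 18 libraries of 16 h. The main fit treated the 2 wells of a culture as unpaired, and fits with a block are given as alternatives. Poly(A) RNA of whole wells was sequenced, and fewer cells expressing a gene cannot be told apart from less of its RNA per cell.

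The endoplasmic reticulum (ER) folds secreted and membrane proteins, and glucose is needed there to build the N-linked glycans that guide folding. When folding fails, membrane sensors start the unfolded protein response: ATF6 is cut to release a transcription factor that raises ER chaperones, IRE1 (gene ERN1) splices XBP1 mRNA into another activator, and PERK (gene EIF2AK3) phosphorylates eIF2 alpha. The PERK branch belongs to the integrated stress response, which lowers general translation while favouring ATF4, an activator of amino acid supply genes and of the death-linked factor CHOP (gene DDIT3). XBP1 and ATF6 share many chaperone targets.

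ATF6 itself (chromosome 1, 161766320 to 161964070, GRCh38) was measured first, as a check on the labels. In normalised read counts (CPM, counts scaled to library size with TMM factors), its mRNA was 10.1, 7.72 and 8.26 at 25 mM and 20.2, 13.7 and 10.8 at 0 mM in replicates 1, 2 and 3. The siControl means were 44.6 ± 0.697 and 89.1 ± 1.02 CPM (SD, n = 3), so the level with siATF6 was 19.5% and 16.7% of that with siControl. The lowest siControl library stood at 43.9 and the highest siATF6 library at 20.2 CPM. The residual ATF6 mRNA rose without glucose by 0.77 ± 0.178 (log2 fold change ± SE, edgeR adjusted p = 0.00326).

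Depth was 41.72 M to 58.12 M counts per library in the 6 libraries, and TMM factors were 0.9414 to 1.058. Mitochondrial genes took 2.08 to 2.19% of counts in the replicate 1 libraries and 3.62 to 4.71% in the others. Replicate 1 stood apart at both glucose concentrations: the mean chi-square per gene was 55.32 to 113.2 between replicate 1 and either of the others and 9.101 to 10.13 between replicates 2 and 3, where counting noise alone gives 1. The 3 paired responses still ran alike across 11095 genes with a mean of at least 5 CPM, with r = 0.889 for pairs 1 and 2, 0.847 for 1 and 3 and 0.964 for 2 and 3 (across genes, which are not independent). Of the lung epithelial markers, KRT7 had at least 3190 and ALDH1A1 at least 2230 raw CPM in every library, while SFTPB, SFTPC and NKX2-1, markers of alveolar cells, were at or below 0.0941. Of 14 markers of blood, stromal and endothelial cells, CD68 was at 29.2 to 95.3 raw CPM, ACTA2 at 3.83 to 5.57, CD14 at 0.53 to 5.9 and LUM at 0.0982 to 1.89. The other 10, among them PTPRC, CD3E, COL1A2, PECAM1 and VWF, were at or below 0.757, and the part of these markers in the results was not tested.

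Withdrawal of glucose changed 6033 of 18013 genes tested (33.5%, edgeR quasi-likelihood test, adjusted p under 0.05), of which 2811 rose (15.6% of genes) and 3222 fell (17.9%). These shares of genes up and down are the ones to set beside each count of list members below. At least 2-fold changes were found for 2367 genes (13.1%), 1072 up and 1295 down. The libraries of the groups did not overlap for 9816 genes (54.5%). The median log2 fold change over all genes was -0.0251 and the median absolute value 0.433. Without replicate 1 in every group, a setting chosen after the data were seen, 4943 genes were called, and 4368 of the 6033 were among them, each in the same direction. With all 36 libraries of the series in the fit, 831 were called, and the count was 4797 to 5204 when any 1 of the 6 libraries was left out.

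By the rule of largest change with at least 5 CPM in the higher group, the increases were led by SFT2D3, HSPA6, EGR1, FOSB, BHLHA15, DDIT3, KLHDC7B, ATP6V0D2, ADM2, ATF3, FOS and RASD1. SFT2D3 had no count at 25 mM and 10.0, 4.06 and 8.74 CPM at 0 mM, at least 129-fold higher against a floor of 3 counts per library. All of its exon bases lie within WDR33 on the other strand, and the libraries do not separate strands. Its reads can thus be assigned to either gene, and the fold describes the deposited counts only. BHLHA15 (MIST1, a factor of secretory cells that XBP1 is known to activate) went from 0.166, 0.131 and 0.244 to 14.2, 9.60 and 9.57 CPM (log2 fold change 5.90 ± 0.444, edgeR adjusted p = 1.05e-07). The decreases were led by FAM111B, RNF43, SYT12, CLDN2, NES, AXIN2, MPP2, E2F2, MCM10, SEMA6B, KIF26A and CLSPN. FAM111B, E2F2, MCM10 and CLSPN serve DNA replication, and RNF43 and AXIN2 are feedback inhibitors that WNT signalling switches on.

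The ER chaperone system rose in siATF6 cells. Of 16 genes for the ER HSP70 chaperones and their partners, 14 rose and 1 fell, with a median log2 fold change of 1.89. HSPA5 (BiP, the central ER chaperone; chromosome 9, 125234853 to 125241343) was 736, 692 and 680 CPM at 25 mM and 7611, 7354 and 7033 at 0 mM. Every deprived library was far above every control, and the change was 3.38 ± 0.109 (edgeR adjusted p = 2.40e-11). Per length, HSPA5 moved from the 542nd to the 79th most abundant gene in mean TPM (counts per effective length, scaled to a common total). HSP90B1 (GRP94, the ER form of HSP90) went from 679, 579 and 567 to 2365, 2393 and 2219 CPM, a rise of 1.94 ± 0.134 (edgeR adjusted p = 4.56e-08). HYOU1, the exchange factor of BiP, rose by 3.12 ± 0.155 from 110.0, 99.2 and 102 to 953, 905 and 838 CPM (edgeR adjusted p = 2.52e-09). DNAJB9 (ERdj4), a BiP cochaperone under IRE1 and XBP1 control, rose from 15.1, 11.3 and 12.1 to 181, 122 and 125 CPM, a change of 3.47 (edgeR adjusted p = 3.53e-07). CRELD2, a secreted ER stress protein, rose from 22.3, 18.4 and 19.3 to 179, 173 and 152 CPM (3.07 ± 0.155, edgeR adjusted p = 2.64e-09). SDF2, a paralog of SDF2L1, was the member that fell, by 0.44 on the log2 scale (edgeR adjusted p = 0.0357), and the call was lost without the filter on low counts, with a block for each transfected culture, without replicate 1, and when any 1 of the 6 libraries other than the 25 mM library of replicate 3 was left out. CDNF, at 0.352 to 1.00 CPM, was not called.

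**Figure D1:**
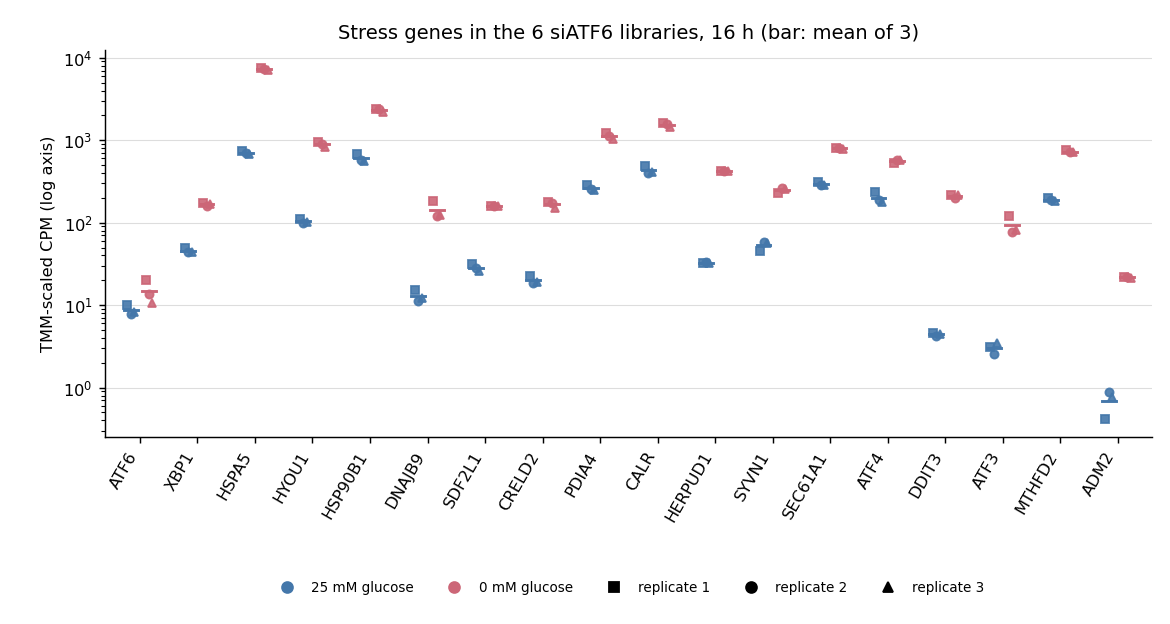
Normalised counts in CPM (log axis) of 18 stress genes in the 6 siATF6 libraries at 16 h, with blue for 25 mM and red for 0 mM glucose, 1 marker shape per replicate and a bar at the mean of 3. ATF6 stays at or below 20.2 CPM, while HSPA5 lies between 680 and 736 CPM at 25 mM and between 7033 and 7611 at 0 mM.

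The promoters of these genes are shown because known ER stress elements, which ATF6 and XBP1 can bind with NF-Y, lie in them. Sequences are the 250 bases before the annotated start, 5′ to 3′ on the gene's strand, from RefSeq (GRCh38.p14). Capitals mark an ER stress element (CCAAT, a gap of 9 bases, CCACG) or an ER stress element II (ATTGG, a gap of 1 base, CCACG), searched on both strands and read here on the strand of the gene. The positions are chr16:56931892-56932141 (plus strand) for HERPUD1, chr9:125241344-125241593 (minus) for HSPA5, chr11:119057206-119057455 (minus) for HYOU1, chr22:49918384-49918633 (plus) for CRELD2, chr22:21642052-21642301 (plus) for SDF2L1 and chr12:103930160-103930409 (plus) for HSP90B1.
HERPUD1: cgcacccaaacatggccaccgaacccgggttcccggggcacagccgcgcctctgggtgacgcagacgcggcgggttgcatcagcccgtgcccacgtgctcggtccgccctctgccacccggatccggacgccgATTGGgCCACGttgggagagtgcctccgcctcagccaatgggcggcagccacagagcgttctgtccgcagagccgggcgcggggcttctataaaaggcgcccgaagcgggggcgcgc
HSPA5: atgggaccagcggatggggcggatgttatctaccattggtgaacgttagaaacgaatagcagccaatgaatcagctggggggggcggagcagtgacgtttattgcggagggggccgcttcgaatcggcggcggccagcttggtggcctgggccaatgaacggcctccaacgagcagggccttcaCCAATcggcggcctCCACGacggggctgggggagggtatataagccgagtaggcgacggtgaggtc
HYOU1: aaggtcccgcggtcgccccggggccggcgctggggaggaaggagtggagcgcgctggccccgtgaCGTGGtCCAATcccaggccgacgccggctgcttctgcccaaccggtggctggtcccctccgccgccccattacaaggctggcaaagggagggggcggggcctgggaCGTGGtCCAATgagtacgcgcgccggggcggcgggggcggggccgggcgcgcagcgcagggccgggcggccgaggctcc
CRELD2: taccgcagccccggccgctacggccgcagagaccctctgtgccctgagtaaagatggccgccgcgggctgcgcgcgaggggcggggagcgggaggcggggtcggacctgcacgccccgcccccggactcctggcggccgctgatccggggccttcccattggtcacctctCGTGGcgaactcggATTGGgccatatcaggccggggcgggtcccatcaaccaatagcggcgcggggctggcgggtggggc
SDF2L1: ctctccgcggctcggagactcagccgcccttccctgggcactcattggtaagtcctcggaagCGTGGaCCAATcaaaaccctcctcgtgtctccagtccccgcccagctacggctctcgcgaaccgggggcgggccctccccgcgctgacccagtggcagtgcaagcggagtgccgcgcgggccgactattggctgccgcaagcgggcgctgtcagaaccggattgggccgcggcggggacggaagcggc
HSP90B1: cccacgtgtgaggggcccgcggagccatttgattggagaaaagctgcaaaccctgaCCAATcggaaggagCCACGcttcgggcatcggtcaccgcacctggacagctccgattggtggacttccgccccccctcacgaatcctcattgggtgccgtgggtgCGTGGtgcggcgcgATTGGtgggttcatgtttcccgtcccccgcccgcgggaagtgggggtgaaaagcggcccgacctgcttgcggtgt

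A promoter was found for 11146 of the 14326 protein-coding genes tested, and of these 11146 genes 1868 rose and 2298 fell. An exact ER stress element occurred in 16 of these promoters (0.144%) and element II in 11 (0.0987%). Of the 16, 13 belonged to genes that rose and none to a gene that fell. They were HSPA5, FICD, CRELD2, FRG2, ERO1B, HSP90B1, XBP1, CALR, SERP1, ALG12, CANX, TRIM5 and EIF2A, with log2 fold changes from 0.77 for EIF2A to 3.38 for HSPA5. FRG2 has near-identical copies among which reads can be split. Of the 11 with element II, HERPUD1, HYOU1, SDF2L1 and NUCB1 rose, SHCBP1 and GYS1 fell, and 5 were not called. Among the ER HSP70 genes with a promoter, 3 of 15 (20%) held the first element and 2 (13.3%) the second. These motif counts describe letters in the window and were not tested.

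Folding enzymes and quality control moved the same way. Of 20 protein disulfide isomerases and oxidases, 12 rose and none fell (median 0.644). PDIA4 was 288, 257 and 252 CPM at 25 mM and 1231, 1134 and 1034 at 0 mM (2.09 ± 0.134, edgeR adjusted p = 2.05e-08). ERO1B, which reoxidises the isomerases, rose by 2.32, PDIA3 by 1.63 and PDIA6 by 1.29. The more abundant oxidase ERO1A was not called (0.08). Mean TPM at 25 and 0 mM were 32.92 and 30.89 for ERO1A and 2.37 and 10.43 for ERO1B. Of 16 lectin chaperone and glycan quality control genes 11 rose and none fell (median 0.608). CALR (calreticulin), which holds monoglucosylated glycoproteins, rose by 1.83, EDEM1, which takes misfolded glycoproteins to degradation, by 1.39, ERLEC1 by 1.08 and OS9 by 0.75.

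In ER-associated degradation, which returns misfolded proteins to the cytosol, 11 of 23 genes rose and 2 fell (median 0.444). HERPUD1, a scaffold of the ligase complex, was 32.0, 33.7 and 32.6 CPM at 25 mM and 418, 419 and 419 at 0 mM (3.67 ± 0.122, edgeR adjusted p = 2.40e-11). Its 3 deprived libraries differed by less than 1 CPM. SYVN1 (HRD1), the ligase itself, rose by 2.22, SELENOS by 2.11 and SELENOK by 1.801. NPLOC4 and UBE2G2, general ubiquitin factors, fell by 0.40 and 0.42, and the UBE2G2 call was lost without either library of replicate 1, the 0 mM library of replicate 2 or the 25 mM library of replicate 3. Of the sensors and their relatives, 8 of 11 rose, among them XBP1 from 49.2, 44.4 and 43.7 to 171, 160 and 167 CPM (1.86 ± 0.111, edgeR adjusted p = 9.31e-09). ERN1 rose by 2.50, EIF2AK3 by 1.37, ATF6B, the paralog of ATF6, by 0.66 and ATF6 by 0.77. MBTPS1 and MBTPS2, the proteases that cut ATF6, were not called (0.11 and 0.12).

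Entry into the ER and export from it rose as well. Of 27 genes for the translocon, signal peptidase and oligosaccharyltransferase (OST, which attaches N-glycans), 22 rose and none fell, with a median of 0.861. SEC61A1, the channel subunit, was 312, 288 and 286 CPM at 25 mM and 808, 810 and 784 at 0 mM (1.44 ± 0.0912, edgeR adjusted p = 1.92e-08). SSR3 rose by 1.65, OSTC by 1.30 and RPN1 by 1.04. Of 34 COPII and COPI vesicle genes, 24 rose and 1, SEC24B, fell (median 0.710); its call was lost without the 0 mM library of replicate 3 or the 25 mM library of replicate 2 or 3. SEC24D, a cargo adaptor of COPII coats, rose by 2.18, ARFGAP3 by 1.73, MIA2 by 1.66 and COPG1 by 1.07. Summed over the 27 translocation genes, TPM were 5090, 4810 and 4790 at 25 mM and 7821, 7724 and 7688 at 0 mM, without overlap.

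The integrated stress response list had the largest median, 2.41, of the lists described here: 13 of its 14 regulators rose and ATF5 fell by 0.68, a call lost without either library of replicate 1. ATF4 was 238, 186 and 178 CPM at 25 mM and 529, 573 and 577 at 0 mM (1.48 ± 0.143, edgeR adjusted p = 1.27e-06). DDIT3 (CHOP) went from 4.62, 4.26 and 4.42 to 217, 201 and 219 CPM, a change of 5.58 ± 0.235 (edgeR adjusted p = 3.70e-10), and 39.6% of its exon bases overlap other genes. TRIB3, a CHOP target that restrains ATF4, rose by 3.24 and ATF3 by 4.93. PPP1R15A (GADD34), which brings a phosphatase to eIF2 alpha, rose by 3.90, and SESN2, an inhibitor of mTORC1, by 3.81. Among the eIF2 kinases and their partners, 3 of 13 rose and 1 fell, where 15.6% and 17.9% of all genes did. IMPACT, EIF2S2 and EIF2S3 rose by 0.85, 0.70 and 0.47, and EIF2AK1 fell by 0.36. The number that fell was 4 with the replicate block, 0 without replicate 1, and 6 when the 0 mM siATF4 library of replicate 3 was left out of the shared estimate of spread.

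Of 21 synthesis and one-carbon enzymes 15 rose and 4 fell (median 0.977). MTHFD2, the mitochondrial folate dehydrogenase, was 199, 190 and 181 CPM at 25 mM and 754, 718 and 713 at 0 mM (1.94 ± 0.107, edgeR adjusted p = 4.98e-09), and 33.2% of its exon bases overlap other genes. GOT1 rose by 2.13, PCK2 by 1.74 and GPT2, an alanine transaminase, by 1.05. SHMT1 fell by 1.14, MTHFD1 by 0.87 and GOT2 by 0.45. Of 12 amino acid transporters 9 rose, among them SLC3A2 by 1.64, SLC1A4 by 1.29, SLC6A9 by 1.21 and SLC1A5 by 0.89. SLC7A6 fell by 0.67, a call lost without the 0 mM library of replicate 1, and 55.6% of its exon bases overlap other genes. With the replicate block 2 transporters fell. Of 20 cytosolic tRNA synthetases 11 rose and RARS1 fell by 0.53 (2 fell without the 0 mM siATF4 library of replicate 3). WARS1 rose by 1.805, GARS1 by 1.62, AARS1 by 1.601 and CARS1 by 1.495. Of 17 mitochondrial synthetases 2 rose and 4 fell (LARS2 by 0.82), where 15.6% and 17.9% of all genes did. When any 1 siATF6 library was left out 1 rose, and without the 0 mM siATF4 library of replicate 3 in the shared spread 7 fell.

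The letters TGATGNAA (N is any base, both strands), the core of the element that ATF4 binds with C/EBP partners, occurred in 1.45% of all promoters searched. Among amino acid enzymes they were in 4 of 15 promoters (26.7%): MTHFD1L, ASNS, GOT1 and BCAT1, all of which rose. They were in 2 of 13 promoters of the integrated stress response list, 2 of 16 of cytosolic tRNA synthetases and 0 of 11 of amino acid transporters. Of the enzyme list, 15 of 21 genes rose in any case. Over all genes, 162 promoters held these letters. Of those, 42 belonged to genes that rose (2.25% of their promoters) and 29 to genes that fell (1.26%).

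Secreted stress signals rose in 9 of 11 cases and fell in none (median 1.95). ADM2 went from 0.414, 0.874 and 0.78 to 21.9, 22.1 and 21.4 CPM (4.97 ± 0.362, edgeR adjusted p = 7.31e-08). STC2 rose by 2.86, VEGFA, the angiogenic factor, by 1.95, GDF15, a hormone of nausea and appetite, by 1.96 and AREG, an EGF receptor ligand, by 1.54. The hexosamine pathway, which makes the sugar donor for N- and O-glycans, had 5 of 9 genes up and none down (median 0.719). GFPT1, its rate-limiting enzyme, rose from 117, 126 and 124 to 551, 556 and 598 CPM (2.22 ± 0.148, edgeR adjusted p = 3.07e-08), and PGM3 rose by 1.42.

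**Figure D2:**
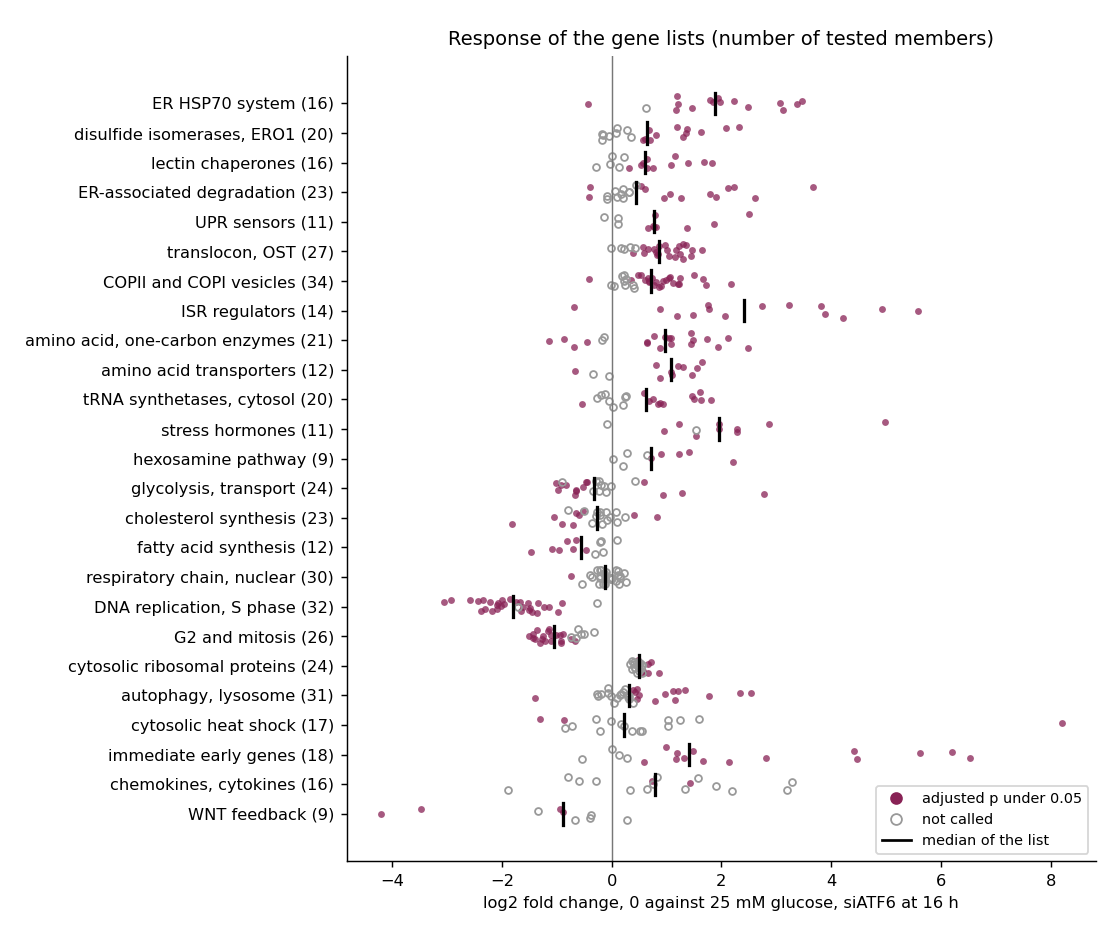
Each point is a gene, placed by its log2 fold change at 0 against 25 mM glucose in siATF6 cells at 16 h, for 25 gene lists. Filled points have an adjusted p under 0.05, open points do not, and the bar is the median, which runs from -1.8 for DNA replication genes to 2.41 for integrated stress response regulators.

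Glucose catabolism genes changed in both directions. Of 24 glycolysis and glucose transport genes 4 rose and 10 fell (median -0.319). LDHA, which makes lactate, was 1865, 1765 and 1637 CPM at 25 mM and 626, 972 and 996 at 0 mM, and fell by 1.02 (edgeR adjusted p = 0.000258). PKM fell by 0.64, PGAM1 by 0.66 and ENO2 by 0.53. HK2, a hexokinase, rose by 2.77, and the glucose transporters SLC2A3 and SLC2A1 rose by 1.29 and 0.93. Of 30 nuclear genes of the respiratory chain 1, SDHA, fell (by 0.73) and none rose; 3 fell with the replicate block, and 1 rose and 6 fell without the 0 mM siATF4 library of replicate 3 in the shared spread.

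Of 12 fatty acid synthesis genes 7 fell and none rose (median -0.558), and 4 fell when replicate 1 of both siATF6 groups was left out. FADS2, a desaturase, was 516, 439 and 417 CPM at 25 mM and 162, 171 and 165 at 0 mM (-1.46 ± 0.112, edgeR adjusted p = 1.23e-07). FASN fell by 1.09, ACLY by 0.96 and ACACA by 0.82. Of 23 cholesterol pathway genes 7 fell and 2 rose (median -0.260). MVK fell by 1.06, EBP by 0.91 and HMGCS1 by 0.65, while STARD4 and HSD17B7 rose by 0.83 and 0.40. When any 1 siATF6 library was left out, 0 or 1 cholesterol gene rose, and none did without the filter on low counts. The 7 decreases became 4 without replicate 1 of both siATF6 groups, without the 25 mM library of replicate 1, or without the 0 mM library of replicate 2 or 3.

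The cell cycle programme fell. Of 32 DNA replication and S phase genes 30 fell and none rose (median -1.8), the exceptions being CDC6 and CCNE2. MCM3, of the replicative helicase, went from 196, 173 and 165 to 44.0, 43.2 and 39.0 CPM (-2.08 ± 0.110, edgeR adjusted p = 3.24e-09). E2F2 fell by 3.05, MCM10 by 2.93, CHAF1A by 2.21, RRM2 by 2.18 and POLE2 by 2.02. Of 26 G2 and mitosis genes 20 fell and none rose (median -1.06), among them CCNA2 by 1.51, FOXM1 by 1.31, CDK1 by 1.25 and MAD2L1 by 1.16. Summed TPM of the mitosis list were 1980, 1932 and 2018 at 25 mM and 706, 977 and 1017 at 0 mM, lowest in replicate 1. TTTCCCGC or TTTGGCGC, letters that E2F factors bind, were in 12 of 27 S phase promoters (44.4%) against 3.0% of all promoters searched, counting both strands. Over all genes called, they were in 4.0% of promoters of genes that fell and 2.41% of those that rose.

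Cytosolic ribosomal protein genes were higher throughout: 23 of 24 did not overlap between groups, all 23 higher at 0 mM, while 7 passed the test (median 0.5). Over all genes 54.5% did not overlap, 15.6% rose and 17.9% fell, the shares to set beside each list of this paragraph. RPL3 was 1355, 1336 and 1216 CPM at 25 mM and 2279, 2422 and 2438 at 0 mM (0.87, edgeR adjusted p = 0.000370). The number that rose was 23 in a fit of the 6 libraries alone, 15 with DESeq2 and 3 without replicate 1, and 23 when the 0 mM siATF4 library of replicate 3 (TMM factor 0.7961, the lowest of the 18) was left out of the shared estimate of spread. Of 19 translation factors 9 rose and 3 fell, EIF1 by 1.63 up and EIF4E by 0.60 down; 1 fell without the 0 mM library of replicate 3, and 6 without the 0 mM siATF4 library of replicate 3. Of 31 autophagy and lysosome genes 14 rose and 1 fell: MAP1LC3B (LC3B), of the autophagosome membrane, rose by 2.33, WIPI1 by 2.54, ATG13 by 1.21 and CTSL by 0.97, and TFEB fell by 1.40 (2 genes fell without the 0 mM library of replicate 1). In the NRF2 and glutathione list 7 of 24 rose and 3 fell, with HMOX1 up from 147, 156 and 152 to 1047, 701 and 708 CPM (2.43, edgeR adjusted p = 2.54e-05) and GPX2 down by 1.41. With the replicate block 8 rose and 5 fell in this list, and the GPX2 call was lost without the 0 mM library of replicate 1 or 3 or the 25 mM library of replicate 2 or 3. In the p53 list 6 of 18 rose and 2 fell, with GADD45A at 2.47 and BBC3 (PUMA) at 1.72; 1 fell when any 1 siATF6 library was left out. TNFRSF10B (DR5), a death receptor and known CHOP target, rose from 259, 272 and 259 to 738, 748 and 737 CPM (1.49, edgeR adjusted p = 1.53e-07), in a death and BCL2 family list with 6 of 19 up and 2 down, or 1 down without the 0 mM library of replicate 2 or the 25 mM library of replicate 1 or 3.

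Immediate early genes rose in 14 of 18 cases and fell in none (median 1.40), but by different amounts in the 3 pairs. EGR1 was 0.559, 0.372 and 0.537 CPM at 25 mM and 104.8, 15.9 and 17.3 at 0 mM (6.54, edgeR adjusted p = 0.00049). FOSB was 0.352, 0.743 and 0.764 and then 112.8, 12.6 and 12.7, and FOS was 2.03, 2.25 and 1.38 and then 100.7, 12.4 and 11.8. In all 3 genes the deprived library of replicate 1 was highest, and without replicate 1 the changes were 5.16, 4.07 and 2.75, all still called. With replicate 1 of both siATF6 groups left out, 9 of 18 rose, and without replicate 1 in every group 11 rose and 1 fell. JUN rose by 1.67, MAFF by 2.80 and KLF4 by 2.13, and of 14 MAP kinase phosphatase and Sprouty genes 5 rose and none fell, DUSP6 by 2.20. Other genes overlap 40.5% of the exon bases of DUSP6.

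Cytosolic heat shock genes separated replicate 1 from the other cultures. HSPA6, the strictly inducible HSP70, was 1.43, 1.40 and 1.76 CPM at 25 mM and 1034, 170 and 151 at 0 mM (8.20, edgeR adjusted p = 7.01e-05). It was the 1 member of 17 that rose, and HSPA8 and HSPE1 fell, by 1.30 and 0.87. HSPA1A was 492, 618 and 651 at 25 mM and 2951, 646 and 577 at 0 mM, so its control and deprived libraries overlapped, and HSPA1B, a near-identical copy that can share its reads, was 297, 379 and 400 and then 2318, 479 and 447, without overlap. Neither passed the test. HSP90AA1 was 2513, 2227 and 2388 and then 2348, 993 and 981 CPM. Among the deprived libraries replicate 1 was the highest for each of these genes, and replicates 2 and 3 lay close together. Summed over the list, TPM were 7623, 6977 and 7269 at 25 mM and 9759, 3828 and 3736 at 0 mM. Without the deprived library of replicate 1, 1 gene rose and 4 fell. Without replicate 1 in every group, 1 rose and 5 fell, with HSP90AA1 at -1.22 and DNAJA1 at -1.38. With replicate number as a block, 2 rose and 5 fell.

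**Figure D3:**
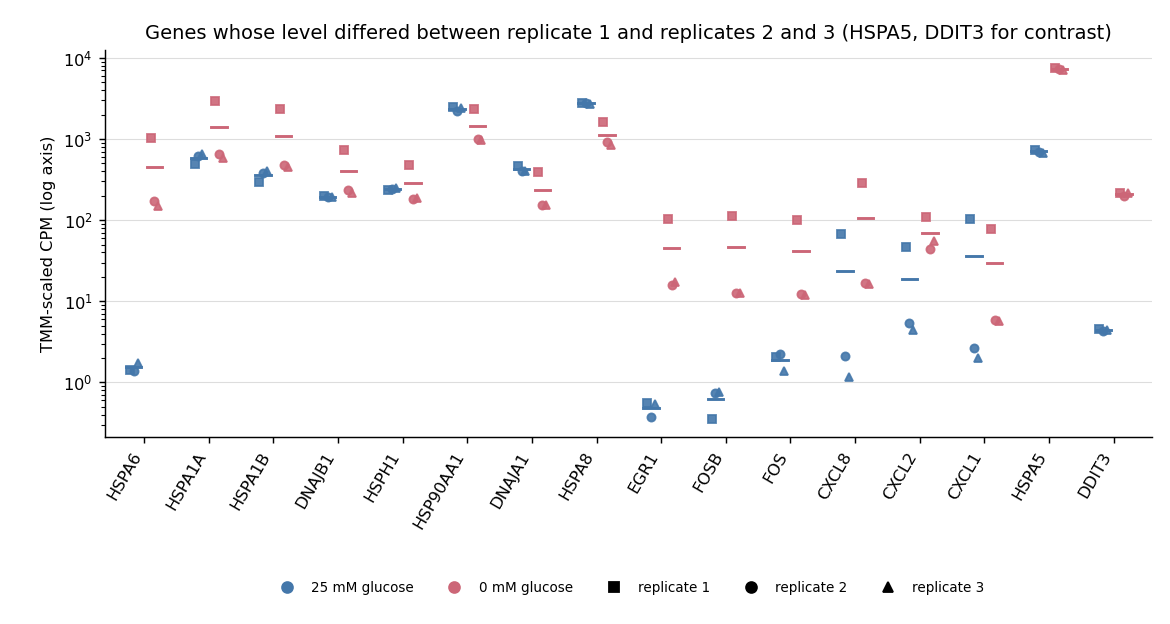
Normalised counts in CPM (log axis) in the 6 siATF6 libraries at 16 h for heat shock, immediate early and chemokine genes chosen after their values were seen, with HSPA5 and DDIT3 for contrast; colours are glucose concentrations, marker shapes replicates, bars means of 3. At 0 mM the square of replicate 1 lies above the others for HSPA6 (1034 against 170 and 151 CPM), while the 3 HSPA5 markers lie between 7033 and 7611.

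Chemokines also differed by culture, at both glucose concentrations. CXCL8 (interleukin 8) was 66.7, 2.14 and 1.15 CPM at 25 mM and 286, 16.7 and 16.3 at 0 mM, higher at 0 mM in each pair although the groups overlapped. In the list of 16 chemokines and cytokines 2 rose and none fell, where 15.6% and 17.9% of all genes did. LIF rose by 0.74 and IL11 by 1.42, the latter call lost without the 0 mM library of replicate 1 or the 25 mM library of replicate 2 or 3. With the replicate block 9 rose and 2 fell, and without replicate 1 10 rose and 2 fell; CXCL2 was then at 3.36 and CXCL8 at 3.34. The part of replicate 1's lower mitochondrial share in these values was not tested.

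Of 9 WNT feedback and inhibitor genes tested, 4 fell and none rose (median -0.892). RNF43 was 4.66, 10.9 and 13.1 CPM at 25 mM and 0.370, 0.440 and 0.722 at 0 mM (-4.21, edgeR adjusted p = 2.30e-05), though 73.9% of its exon bases overlap other genes. AXIN2 went from 7.56, 9.64 and 9.51 to 1.78, 0.180 and 0.495 CPM (-3.47, edgeR adjusted p = 0.000172). Other genes overlap 25.2% of its exon bases. These counts of the WNT list moved with the setting. With the replicate block, or without replicate 1, 8 fell, and 7 fell without the deprived library of replicate 1 alone. Among 18 junction and adhesion genes 4 rose and 2 fell, where 15.6% and 17.9% of all genes did. In this list 5 rose and 4 fell with the replicate block, and 4 rose and 4 fell without replicate 1. OCLN rose by 1.79 and CLDN1 by 1.21, and the claudin CLDN2 fell from 16.9, 19.1 and 17.5 to 0.838, 1.28 and 1.53 CPM (-3.87, edgeR adjusted p = 2.90e-07). Against the same shares of all genes, 6 of 26 rose and 2 fell in the matrix and integrin list, and 11 rose and 3 fell with the block. CCN2, a matricellular protein, rose by 1.63.

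Whether the response differed from that of cells with normal ATF6 was asked with the difference of responses, siATF6 minus siControl. No gene passed in the edgeR test (0% of 18013), while 412 had an unadjusted p under 0.05 (2.29%). DESeq2 called 18, the replicate block 2 and the 12 libraries of these groups alone 7. The share of 2.29% lies below the threshold of 0.05 itself, and the lack of calls does not show equal responses. Without the 0 mM siATF4 library of replicate 3 in the shared spread 6 genes passed, all with the lower value after siATF6. With a block for each transfected culture no gene passed, and 557 had an unadjusted p under 0.05. The responses were alike in direction: of the 2367 genes changed at least 2-fold with siATF6, 1538 (65%) were also among the 1939 of siControl, 79.3% of those, and 1537 of them moved the same way. The comparisons share no library.

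The ER chaperones stood lower on the siATF6 side of this difference. Of the 16 ER HSP70 genes, 12 had a smaller response with siATF6, with a median difference of -0.285, against -0.0219 and 54.4% of all genes lower. For 6 of the 16 the difference had an unadjusted p under 0.05 (edgeR), against 2.29% of all genes, and none passed after adjustment. The 8 genes with the smallest p were STEAP3, DNAJB11, CRELD2, PDIA4, CRELD1, HOXC13, SEPTIN5 and HSP90B1, each with the smaller value after siATF6. CRELD2 reached 179, 173 and 152 CPM in deprived siATF6 libraries and 439 ± 15.7 (SD, n = 3) in siControl, from 24.2 CPM at 25 mM in siControl. Its difference was -1.11 ± 0.204 (edgeR adjusted p = 0.347). DNAJB11 differed by -0.68 ± 0.106 (edgeR adjusted p = 0.0930), PDIA4 by -0.94 ± 0.182 (edgeR adjusted p = 0.356) and HSP90B1 by -0.86 ± 0.184 (edgeR adjusted p = 0.511). These 3 and CRELD2 passed in the fit of the 12 libraries alone and with DESeq2, and PDIA4 also with the replicate block (edgeR adjusted p = 0.0496) but not with a block for each transfected culture.

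STEAP3, a ferrireductase of endosomes, was the gene closest to passing. It was 98.9, 112 and 109 CPM at 25 mM and 95.3, 99.4 and 92.97 at 0 mM after siATF6, which did not pass the test of deprivation (-0.15 ± 0.109). With siControl it rose from 104 ± 2.35 to 195 ± 30.0 (SD, n = 3) and with siATF4 from 102 ± 8.84 to 174 ± 14.4. The difference from siControl was -1.05 ± 0.155 (edgeR adjusted p = 0.0840, and 0.0185 with the replicate block). This difference also passed with DESeq2 (adjusted p = 8.45e-07) and with only the libraries compared (edgeR adjusted p = 0.0295). It passed without the 0 mM siATF4 library of replicate 3 in the shared spread (edgeR adjusted p = 0.0217). Leaving out the 0 mM siControl library of replicate 1 gave an edgeR adjusted p of 0.0289. With a block for each transfected culture, or without replicate 1 in every group, it did not pass. HSPA5 rose by 3.38 after siATF6 and 3.88 after siControl, a difference of -0.49 ± 0.141 (edgeR adjusted p = 0.9999). So high an adjusted p does not show that the HSPA5 responses were equal. HERPUD1 (3.67 and 3.96), DNAJB9 (3.47 and 3.21), XBP1 (1.86 and 2.00) and DDIT3 (5.58 and 5.68) had close values, and none of their differences had an unadjusted p under 0.05. Of 27 translocation genes 10 were lower than with siControl, and of 34 vesicle genes 9. In siATF6 cells 12 of 12 fatty acid genes and 22 of 23 cholesterol genes had lower values than with siControl (median differences -0.231 and -0.280), none of which passed.

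**Figure D4:**
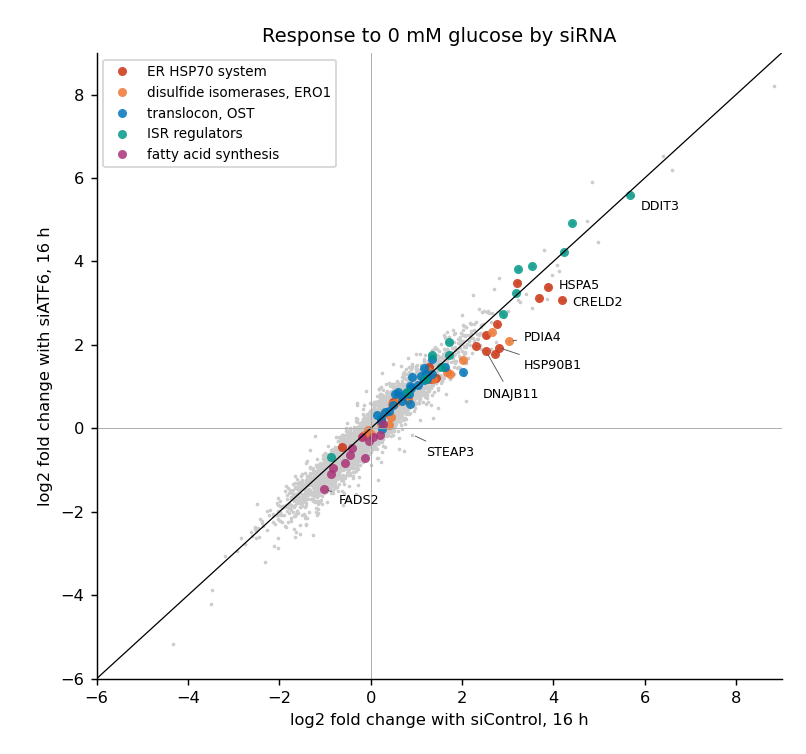
Log2 fold change at 0 against 25 mM glucose with siATF6 (vertical) and with siControl (horizontal) for genes of at least 5 mean CPM, with 5 lists in colour and a line of equal response. CRELD2 lies at 3.07 against 4.18, HSPA5 at 3.38 against 3.88 and DDIT3 close to the line at 5.58 against 5.68.

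Against siATF4, 64 genes differed in response (0.355% of 18013, edgeR), 37 with the higher and 27 with the lower value after siATF6; the replicate block called 218 and DESeq2 308. The count was 26 without replicate 1 of both siATF6 groups, 20 to 95 when any 1 library was left out, and 0 with all 36 libraries in the fit. The higher responses after siATF6 included amino acid and stress genes known as ATF4 targets. GPT2 rose from 25.7, 26.1 and 28.3 to 53.3, 56.3 and 56.6 CPM with siATF6 and had a log2 fold change of -0.30 with siATF4, a difference of 1.35 ± 0.123 (edgeR adjusted p = 0.000162). ULBP1, an NKG2D ligand seen by natural killer cells, differed by 2.25, DDIT4, an mTORC1 inhibitor, by 1.73, MTHFD2 and LMO4 by 1.26 each and SLC1A5 by 1.08. ADM2 differed by 2.91, ATF3 by 2.14 and SESN2 by 1.82. ER chaperones stood on the other side: CRELD2 differed by -1.67 ± 0.205 (edgeR adjusted p = 0.00225), SDF2L1 by -1.50, PDIA4 by -1.33, HSP90B1 by -0.99, DNAJB11 by -0.79 and PDIA6 by -0.68. Exon overlaps with other genes cover 73.0% of SEPTIN5, 41.2% of DDIT4, 25.2% of PDIA6 and 23.2% of DNAJB11.

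**Figure D5:**
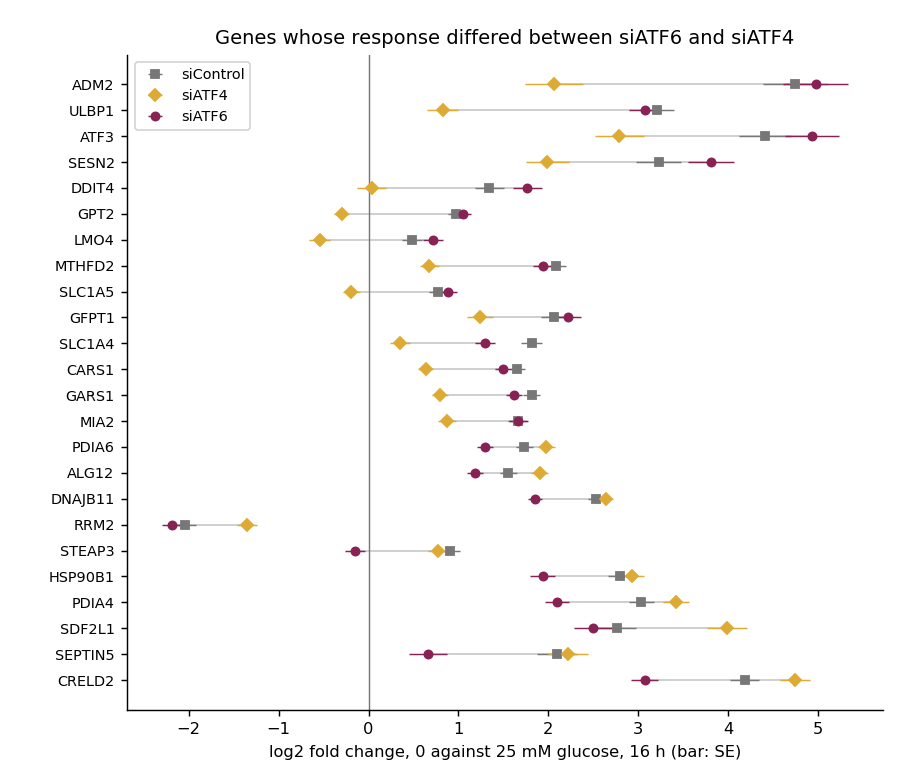
Log2 fold change at 0 against 25 mM glucose, with its SE, after siControl, siATF4 and siATF6 for the named genes whose response differed between siATF6 and siATF4 (edgeR adjusted p under 0.05). Amino acid and stress genes such as GPT2 (1.05 against -0.30) lie to the right with siATF6, and ER chaperones such as CRELD2 (3.07 against 4.74) to the left.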

How the data were processed

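Whole-well poly(A) RNA of A549 cells was sequenced in 36 libraries, of which the 18 of 16 h were used, 3 in each of 6 groups of siRNA and glucose. The 6 h libraries stayed out because earlier results of these data showed a failed library and replicates against their labels among them. The authors deposited expected counts per gene. The submitters' processing notes name fastp, STAR, RSEM and GRCh38; versions, the annotation release and the order of steps are not given in the sources used here. Libraries are paired-end and not stranded per the labels' protocols, so overlapping genes share reads. The deposited table holds 60662 gene IDs, and no column was without a sample.

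Expected counts were rounded to whole numbers. Genes were kept by filterByExpr (minimum count 10, minimum total 15) and scaled by TMM, and 1 mean per group was fitted with edgeR 4.0.16 (R 4.3.3) by robust quasi-likelihood F tests, with Benjamini-Hochberg adjustment over all 18013 genes at 0.05. SE is the absolute log2 fold change over the root of F. CPM are TMM-scaled, except for cell type markers, where they are not. TPM were computed from counts and the deposited effective lengths. The steps were tested on simulated counts. Genes named are the 12 of largest change per direction with at least 5 CPM, up to 4 of smallest p per list and up to 3 called in the opposite direction, the 8 of smallest p per difference of responses, and ATF6, ATF4 and XBP1; other genes named were chosen after their values were seen. The members and the 48 lists (848 tested genes) were chosen with earlier results of these data known.

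Deviations from group means correlated at 0.359, 0.183 and 0.137 between same-numbered libraries at 25 and 0 mM, so the label numbers were taken to pair them. Replicates 2 and 3 also correlated across numbers (0.171 and 0.179). Values with the replicate block stand beside calls, and counts moved by over 1.5 times, in the report or the closing section. Alternatives were other normalizations, DESeq2 1.42.0, no filter, other sets of libraries, replicate blocks and leaving out each library. Leaving out replicate 1 was added after the data were seen. Promoter motifs were searched in the 250 bases before each RefSeq start. Exon overlap was taken from the GENCODE annotation. Among other genes named, it was 36.5% for HSPA1B, 28.1% for WIPI1, 23.9% for HSPE1, 23.8% for SLC1A5, 23.7% for ATF5 and 20.2% for RRM2. Some genes that the naming rule selects are not reported here.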

Additional observations from a re-analysis of the deposited data

Results flagged for a closer look

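The response to glucose withdrawal differed between siATF6 and siATF4 cells by a test of the difference itself (edgeR quasi-likelihood test, adjusted p under 0.05) for 24 genes named in the text, each value being the siATF6 response minus the siATF4 response on the log2 scale. Among amino acid enzymes and transporters it was 1.35 for GPT2, 1.26 for MTHFD2, 1.08 for SLC1A5 and 0.946 for SLC1A4. The tRNA synthetases CARS1 and GARS1 differed by 0.858 and 0.823. Among stress regulators and signals the difference was 2.91 for ADM2, 2.25 for ULBP1, 2.14 for ATF3, 1.82 for SESN2 and 1.73 for DDIT4. LMO4 differed by 1.26, GFPT1 by 0.983 and MIA2 by 0.791.

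Lower responses after siATF6 were found for the ER genes CRELD2 (-1.67), SDF2L1 (-1.50), PDIA4 (-1.33), HSP90B1 (-0.993), DNAJB11 (-0.792), ALG12 (-0.721) and PDIA6 (-0.682). SEPTIN5 differed by -1.56, STEAP3 by -0.924 and the ribonucleotide reductase subunit RRM2 by -0.834. Of all 64 genes called for this difference, 16 were called again with a block for each transfected culture. With only the libraries compared 11 of them were called, and without replicate 1 in every group 28. DESeq2 and the replicate block each kept 64.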

How the results depend on the processing

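With all 36 libraries in 1 fit, 831 genes were called for glucose withdrawal in siATF6 cells and 660 at 2-fold, against 6033 and 2367. Of 162 called genes named in the text, 103 were no longer called. That fit takes in the 6 h libraries, among which earlier results of these data showed a failed library and replicates against their labels. The cause of the lower counts was not tested. The other settings kept both counts within 1.5 times, and no called gene of the text changed direction in any setting. Leaving out 1 library gave 4797 to 5204 genes, or 2146 to 2259 at 2-fold. The difference from siATF4, 64 genes, was 308 with DESeq2, 0 with 36 libraries, 41 without the filter on low counts, 11 with only the libraries compared, 21 with a block for each transfected culture, 26 without replicate 1 of both siATF6 groups and 20 to 95 when 1 library was left out. The difference from siControl, 0 genes, was 18 with DESeq2, 7 with only the libraries compared, 0 with a block for each transfected culture, 6 without the 0 mM siATF4 library of replicate 3 in the shared spread and 0 to 1 when 1 library was left out. The replicate block gave 7611, 218 and 2 genes for the 3 comparisons. It added calls for CXCL8 (2.96), CXCL2 (2.74), CCNE2 (-2.09), DNAJA1 (-0.988), HSP90AA1 (-0.856), ALDH1A1 (-0.479) and the markers LUM (-1.28) and CD68 (0.8) and changed no other call of a gene named in the text. The uncalled CXCL8 value ranged from -0.497 to 6.02 when 1 library was left out, below 0 without the deprived library of replicate 1. The uncalled HSPA1A value stayed above 0 and reached 1.61 when 1 library was left out, and was -0.0508 without replicate 1 and -0.0536 without replicate 1 of siATF6. The uncalled ACTA2 value ranged from -0.2 to 0.0112 when 1 library was left out. Both settings without replicate 1 were chosen after seeing the data. Depth limits genes of few counts, such as CDNF.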
